A study of Mus musculus with 6 samples.

Results

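The genes described here are 29 genes known from the nerves and Schwann cells of the lung, 17 of them neuronal and 12 expressed by Schwann or other glial cells. They were taken by symbol from the probes of the array that are not controls, out of 18217 genes to which a symbol could be given, and all 29 had at least 1 probe, 44 probes in all. The study compared whole lungs of ECAT15-2 knockout and wild type mice at E18.5, counted in days after conception and near the end of gestation, with 3 embryos per group and 1 array per embryo. The knockout (KO) embryos were 15-1Flox/Flox and 15-2-/-, and the wild type (WT) embryos were 15-1+/+ and 15-2+/+. ECAT15-2 is the gene Dppa2 and ECAT15-1 its neighbour and relative Dppa4, which encode nuclear proteins known from pluripotent cells, so every KO embryo also carried the floxed Dppa4 allele on both chromosomes. The parents were intercrossed 15-1+/Flox, 15-2+/- mice of a line begun in 129Sv stem cells, crossed to C57/BL6 and mated once to a Cre or FLPe transgenic line whose background the labels call unknown.

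The lung is innervated by neural crest cells and their descendants, which follow the vagus nerve into the airway wall and settle there as small parasympathetic ganglia, and by sympathetic and sensory axons whose cell bodies lie outside the lung. Only the RNA of the intrinsic ganglia with their satellite glia and of the Schwann cells along the axons is held in the organ itself, apart from what axons carry. These cells make up a small share of the lung, and in whole tissue fewer cells of a type and less RNA per cell cannot be told apart. Schwann cell precursors depend on neuregulin from axons, which they sense through the receptor ERBB3, and on the transcription factor SOX10, while myelin forms around lung nerves mainly after birth.

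On each array 41174 probes were read from 43379 spots, leaving out controls, and 63.3% to 68.8% on the KO arrays and 66.1% to 66.6% on the WT arrays of the probes lay well above background by the scanner software. A level is the log2 intensity relative to the 75th percentile of the array, so that 0 is that percentile. The lowest level called well above background was -5.79, -6.86 and -6.35 on KO arrays 1, 2 and 3 and -6.53, -6.39 and -6.56 on WT arrays 1, 2 and 3, so that the limit of detection was highest on KO 1 and lowest on KO 2. Slide 1 held KO 3, WT 1 and WT 2, slide 2 held WT 3, and slide 3 held KO 1 and KO 2. WT 1 and WT 2 had signal at all 6 probes of Y-linked genes and the other 4 arrays at 0 of them, and the file names in the labels carry a number that KO 1 and KO 2 share, as do WT 1 and WT 2, and as do KO 3 and WT 3. Only the last of these pairs holds both genotypes. Dppa2 had levels of -4.94, -4.98 and -4.08 in KO lungs and -3.25, -3.52 and -3.57 in WT lungs, a difference of -1.22 (limma adjusted p = 0.0603). Its probe is not known here to lie in the deleted part, so it does not check the labels, and the Dppa4 probe was above background on 0 of 6 arrays.

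No gene of either class passed the test between KO and WT lungs. A probe was tested where the KO arrays, the WT arrays or both were all well above background there, which 8 of the 17 neuronal genes and 9 of the 12 Schwann and glial genes did. Of the 8 neuronal genes 0 rose and 0 fell, and of the 9 Schwann and glial genes 0 rose and 0 fell (limma, adjusted p under 0.05 over 19857 features), where 1.34% of all features were called, 0.72% as higher and 0.619% as lower in KO lungs. The split of these calls moved with the scaling, from 143 higher and 123 lower to 81 higher and 240 lower with median scaling. At an unadjusted p under 0.05 there were 5 of the 17 tested genes, or 29.4%, against 25.7% of all features. The KO and WT arrays did not overlap for 5 of the 17, again 29.4%, against 31.3% of all features, so neither share stood far from the background. The 5 genes were the same: the synaptic gene Syt1, the neurofilament gene Nefm, and the glial genes Erbb3, Sox10 and S100b. Nefm and Syt1 passed the filter only through the KO arrays and Prph only through the WT arrays, so the genes that were tested are not a neutral sample of the list.

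Which of these genes could be measured in whole lung differed by role. In the neuronal class, the genes of catecholamine synthesis, Th and Dbh, the receptor genes Ret and Chrna3 and the gene of the vesicle fusion protein SNAP25 (Snap25) were above background on 0 of 6 arrays, and the transcription factor gene Phox2a on 1. In the glial class this held for Cdh19, a cadherin of Schwann cell precursors, and Pmp2, a fatty acid binding protein of myelin, with 0 of 6 arrays each. The levels of these 7 genes with no array above background lay between -8.94 and -6.99 on the KO arrays and between -8.76 and -6.60 on the WT arrays, where values have no order. The cytoskeletal genes Tubb3, Stmn2 and Stmn3 and the glial genes Sox10, Mbp, Gfra3, Fabp7, Mal, Pmp22, Erbb3, S100b and Ngfr were above background on all 6 arrays, as were Elavl4 and Gap43. Per array, 9, 12 and 8 of the 17 neuronal genes were above background on KO 1, 2 and 3 and 9, 7 and 8 on WT 1, 2 and 3. For the 12 Schwann and glial genes the counts were 9, 10 and 9 on KO arrays and 9 on each WT array. KO 2, with the most genes detected in both classes, is the array with the lowest limit of detection.

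**Figure D1:**
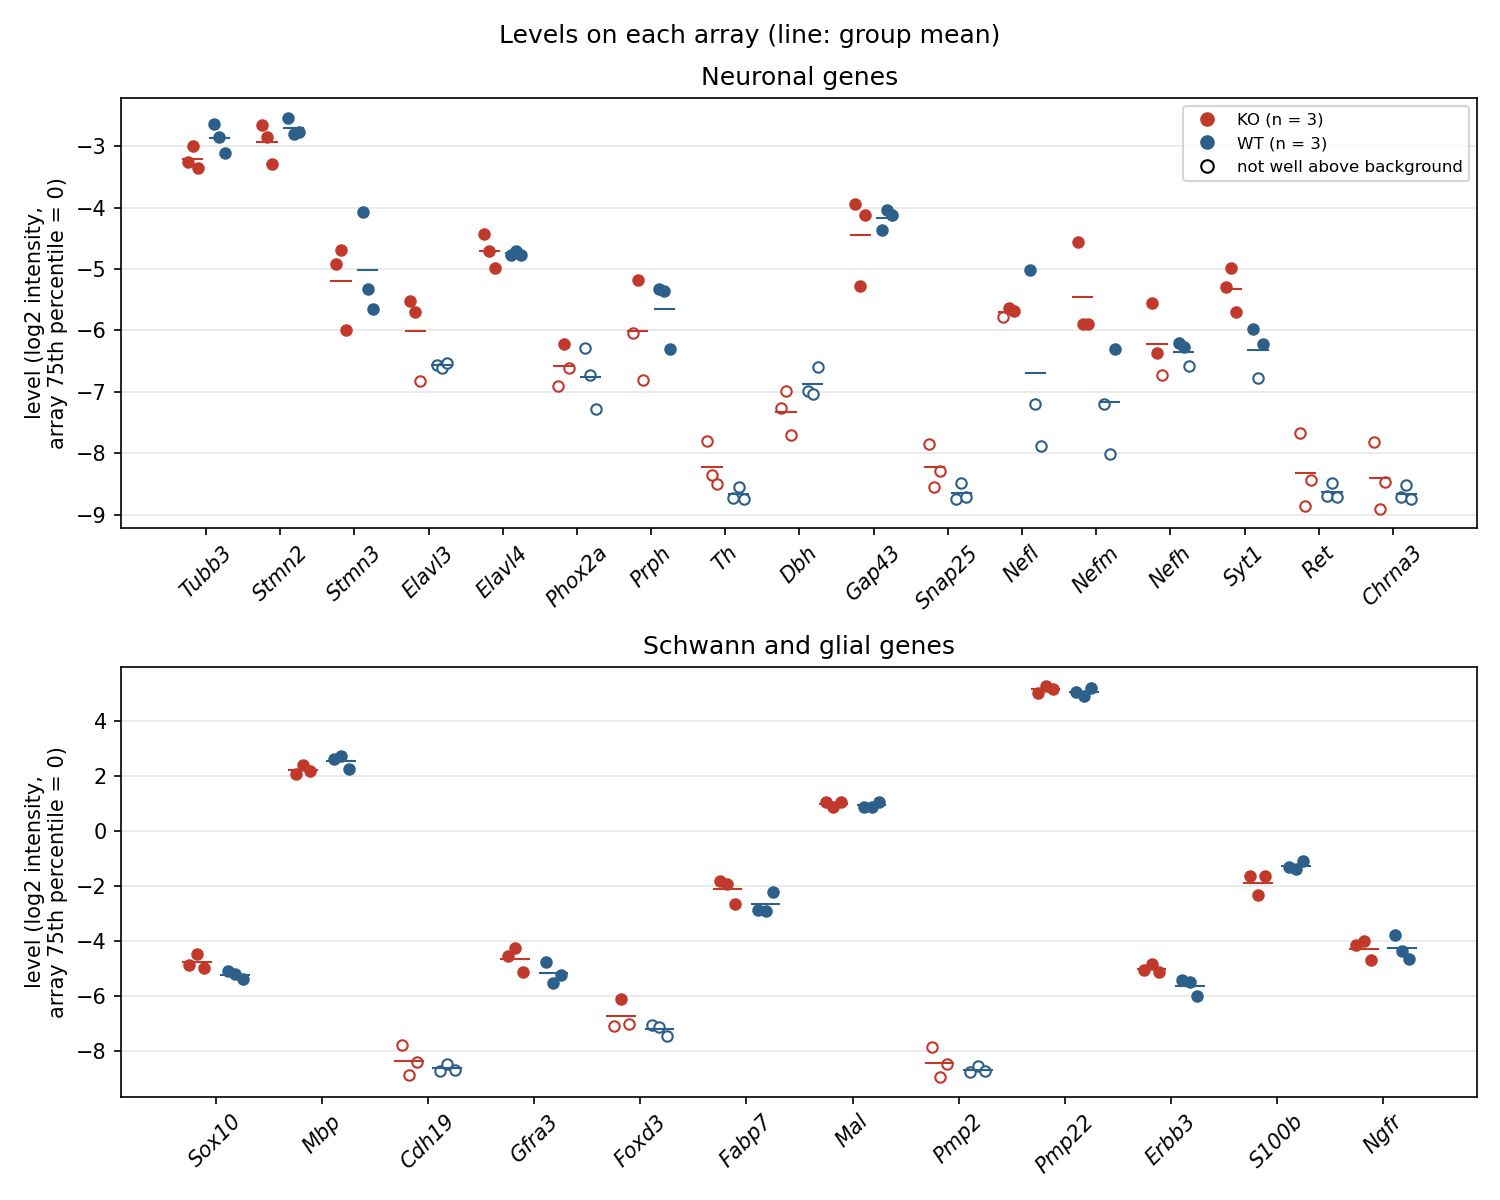
Log2 level of each of the 29 genes on each array, with the array's 75th percentile at 0, KO arrays in red left of WT arrays in blue, and a line at each group mean. Open symbols are arrays on which the probe was not well above background. Th, Dbh, Snap25, Ret, Chrna3, Cdh19 and Pmp2 have open symbols only, and the KO and WT symbols of most other genes overlap.

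Among the cytoskeletal genes of neurons, Tubb3, which encodes the neuron-specific beta tubulin, had levels of -3.25, -2.99 and -3.36 in KO lungs and -2.63, -2.84 and -3.11 in WT lungs. KO 2 lay above the lowest WT array, so the groups overlapped. The difference was -0.34 (95% confidence interval -0.73 to 0.05, adjusted p = 0.24). Stmn2, a tubulin-binding stathmin of growing axons, had levels of -2.66, -2.85 and -3.29 in KO lungs and -2.53, -2.79 and -2.77 in WT lungs, a difference of -0.23 (-0.66 to 0.19, adjusted p = 0.444). KO 3 was the lowest array for both genes. Stmn3, a related stathmin, ranged more widely, with -4.91, -4.70 and -5.99 in KO lungs and -4.07, -5.32 and -5.66 in WT lungs, and its difference of -0.19 had an interval of -1.32 to 0.95. Its sign turned without KO 3 (0.21), without WT 1 (0.29) and with a term for the 2 arrays with Y-linked signal (0.46). That term sets the KO arrays against WT 3 alone, the only WT array without such signal.

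The neurofilament genes were near the limit of detection. Nefm, the medium neurofilament subunit, had levels of -4.56, -5.89 and -5.90 in KO lungs and -7.21, -8.01 and -6.31 in WT lungs. All 3 KO arrays were above background and only WT 3 of the WT arrays was, and the groups did not overlap, with a gap of 0.41 between KO 3 and WT 3. The difference of 1.72 (standard error, SE, 0.51, n = 3 each) did not pass (limma adjusted p = 0.104), and its size is not settled, since the values of WT 1 and WT 2 lie below the limit of detection. Without WT 3 it passed (adjusted p = 0.0432; over all alternatives, from 0.0432 to 0.666), but against those WT arrays alone, both at background. Nefl, the light subunit, was above background on 2 of 3 KO arrays and 1 of 3 WT arrays and was not tested. Its levels were -5.78, -5.63 and -5.69 in KO lungs and -5.01, -7.19 and -7.89 in WT lungs, and WT 1, the only WT array above background, was the highest of all 6. Nefh, the heavy subunit, was above background on 2 of 3 arrays in each group, with levels of -5.55, -6.36 and -6.73 in KO lungs and -6.21, -6.27 and -6.58 in WT lungs. The 3 subunits assemble into the same filament, and of these only Nefm had groups that did not overlap. Prph, the intermediate filament peripherin of peripheral neurons, had levels of -6.05, -5.18 and -6.80 in KO lungs, above background on KO 2, and -5.32, -5.36 and -6.30 in WT lungs, above background on all 3. KO 2 was the highest array of the 6, and the difference of -0.35 (-1.38 to 0.68) did not pass (adjusted p = 0.643).

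Syt1 encodes the calcium sensor of synaptic vesicle release. It had levels of -5.29, -4.98 and -5.70 in KO lungs, all above background, and -5.97, -6.77 and -6.22 in WT lungs, with WT 1 and WT 3 above background. The groups did not overlap, and the difference of 1.00 (SE 0.26) had an adjusted p = 0.0831 by limma, the smallest of the 17 tested genes. Its size is not settled, since the value of WT 2 lies below the limit of detection. With the file name number as a random block it passed (1.06, adjusted p = 0.0431; over all alternatives, from 0.0431 to 0.601). Under that setting 1701 features were called rather than 266, with an estimated correlation within blocks of -0.20. Syt1 entered the test only through the KO arrays. The 4 other Syt1 probes had differences of 0.75, 1.32, 1.02 and 0.26 but were each above background on at most 1 array per group, and 1 of them on 0 arrays. Within slide 1, KO 3 exceeded the mean of WT 1 and WT 2 by 0.67, and KO 3 exceeded WT 3 by 0.52.

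The RNA-binding proteins of the ELAV family mark neurons from the time they leave the cell cycle. Elavl4 had levels of -4.43, -4.71 and -4.99 in KO lungs and -4.76, -4.70 and -4.77 in WT lungs. The 3 WT arrays lay within the range of the KO arrays, and the difference was 0.04 (-0.33 to 0.40), with a sign that turned under 5 of 17 alternatives. Elavl3 had levels of -5.53, -5.70 and -6.82 in KO lungs, where KO 1 and KO 2 were above background, and -6.56, -6.60 and -6.53 in WT lungs, where 0 of 3 arrays were. It was not tested, and its mean over the KO arrays was 1.38-fold higher than the bound for the WT arrays. KO 3 was itself not above background and was the lowest of the 6 arrays. The groups therefore overlapped, and this fold is not a firm lower limit. Here and below, such a bound sets the mean of the brighter group against the limit of detection of each array of the dimmer group, or the probe's own value where that is higher.

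Gap43 encodes a membrane protein of growth cones that Schwann cells can also express, and it lies on chromosome 16, as Dppa2 does. Its levels were -3.93, -5.28 and -4.12 in KO lungs and -4.36, -4.04 and -4.13 in WT lungs. KO 2 stood well below the other 5 arrays, and the difference of -0.27 (-1.07 to 0.53, adjusted p = 0.646) was 0.15 without KO 2. Phox2a, a homeobox factor of autonomic neurons, was above background on KO 2 alone, at -6.22, against -6.90 and -6.62 on the other KO arrays and -6.29, -6.72 and -7.27 on the WT arrays. Th, the rate-limiting enzyme of catecholamine synthesis, and Dbh, which makes noradrenaline, were not above background on any array, so no difference could be measured for them. Slc6a2, the noradrenaline transporter, was above background on all 6 arrays, with a difference of 0.08 (adjusted p = 0.807), and was picked for mention after its values were seen.

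Among the glial transcription factors, Sox10, the factor that Schwann cells require throughout their life, had levels of -4.87, -4.47 and -4.98 in KO lungs and -5.10, -5.18 and -5.38 in WT lungs. The groups did not overlap, with a gap of 0.12, and the difference was 0.45 (SE 0.16, 95% confidence interval 0.07 to 0.83, 1.36-fold), which did not pass (limma adjusted p = 0.148). Another Sox10 probe was above background on 0 of 6 arrays, where values have no order. Within slide 1 the difference was 0.16, and between KO 3 and WT 3 it was 0.40. Foxd3, a factor of neural crest and early glia, was above background on KO 2 alone, at -6.10, with -7.08 and -7.01 on the other KO arrays and -7.05, -7.12 and -7.46 on the WT arrays. Pigment cells, which also descend from the neural crest and express Sox10, had 3 of their 8 marker genes on the array tested, of which 0 rose and 0 fell. The pigment enzyme gene Dct had a difference of 0.38 (adjusted p = 0.211) and Mitf, the master factor of melanocytes, one of -0.25 (adjusted p = 0.607), while Tyr, Tyrp1, Slc45a2 and Gpr143 were above background on 0 of 6 arrays. The summed level of the 8 marker genes, on the linear scale with the 75th percentile as 1, was 0.219 to 0.294 in KO lungs and 0.223 to 0.31 in WT lungs, and the part of such cells in the Sox10 signal was not tested.

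Of the glial receptors, Erbb3, the neuregulin receptor of Schwann cells and also of epithelial cells, had levels of -5.06, -4.84 and -5.14 in KO lungs and -5.41, -5.49 and -6.01 in WT lungs. All KO arrays lay above all WT arrays, with a gap of 0.27, and the difference of 0.62 (SE 0.18, 1.53-fold) had an adjusted p = 0.103 by limma. It kept its sign under all 17 alternatives, from 0.31 to 1.20, and passed in 0 of them. The 3 other Erbb3 probes were above background on at most 2 arrays in KO lungs and 1 in WT lungs and had differences of 0.15, 0.49 and 0.38. Gfra3, the receptor subunit for artemin in Schwann cells and sensory neurons, had levels of -4.53, -4.25 and -5.14 in KO lungs and -4.77, -5.54 and -5.22 in WT lungs. The difference was 0.54 (-0.11 to 1.19, adjusted p = 0.263), but KO 3 lay within the WT range, and the difference was 0.02 within slide 1 and 0.08 between KO 3 and WT 3. Ngfr, the p75 receptor of neurotrophins, had levels of -4.16, -4.00 and -4.68 in KO lungs and -3.77, -4.36 and -4.66 in WT lungs. These overlapped throughout, and the difference was -0.01 (-0.64 to 0.62).

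The myelin genes Mbp, Mal and Pmp22 were bright in whole lung and did not pass the test. Mbp, the gene of myelin basic protein, which also makes golli proteins outside myelin, had levels of 2.05, 2.37 and 2.18 in KO lungs and 2.60, 2.72 and 2.23 in WT lungs at its brightest probe. The difference was -0.32 (-0.69 to 0.06, adjusted p = 0.258), and WT 3 lay within the KO range. Another Mbp probe, which carries a different transcript accession, was dim, above background on 2 KO and 3 WT arrays, with -6.04, -5.05 and -5.52 in KO lungs and -5.07, -5.33 and -5.41 in WT lungs, and the remaining one was above background on 0 arrays. Mal, a proteolipid of myelin and of apical membranes in epithelia, had levels of 1.03, 0.87 and 1.03 in KO lungs and 0.87, 0.85 and 1.06 in WT lungs, a difference of 0.05 (-0.22 to 0.32). A dimmer Mal probe, not used in the test, had 0.24, 0.41 and 0.50 in KO lungs and -0.04, 0.02 and 0.03 in WT lungs, and these did not overlap. The 2 Mal probes therefore disagreed on whether the groups overlap. Pmp22, a membrane protein of compact myelin that fibroblasts and other cells also make, had levels of 5.00, 5.25 and 5.15 in KO lungs and 5.02, 4.89 and 5.17 in WT lungs, a difference of 0.11 (-0.19 to 0.40, adjusted p = 0.627). The signs for Mal and Pmp22 turned with the term for Y-linked signal (-0.084 and -0.037). They also turned with median scaling (-0.10 and -0.044), which lowers all differences alike and sets the median of all features to -0.14.

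S100b, a calcium-binding protein of Schwann cells and satellite glia, had levels of -1.65, -2.34 and -1.65 in KO lungs and -1.33, -1.37 and -1.11 in WT lungs. All KO arrays lay below all WT arrays, with a gap of 0.28, and the difference of -0.61 (SE 0.21, 95% confidence interval -1.09 to -0.12, 1.52-fold lower) did not pass (limma adjusted p = 0.133). It was negative under all 17 alternatives, from -0.77 to -0.24, with -0.30 within slide 1 and -0.54 between KO 3 and WT 3. Fabp7, the fatty acid binding protein of immature glia, had levels of -1.81, -1.92 and -2.66 in KO lungs and -2.87, -2.91 and -2.22 in WT lungs. KO 1 and KO 2 were the highest arrays, while KO 3 lay below WT 3, and the difference was 0.54 (-0.12 to 1.19, adjusted p = 0.267). It was 0.23 within slide 1 and -0.44 between KO 3 and WT 3. Both genes are glial, and their differences had opposite signs.

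Chondrocytes also express S100b, and the markers of cartilage, which lies in the walls of the large airways, varied between the groups. Of 14 marker genes 11 were tested, of which 1 rose, 1 fell and 9 did not pass, with a median difference of 0.61. There were 7 positive and 4 negative differences. The KO and WT arrays did not overlap for 9 of the 11, against 31.3% of all features. An unadjusted p under 0.05 (limma) was seen for 9 of the 11, against 25.7% of all features. Col9a2, a chain of the cartilage collagen IX, rose by 0.81 (limma adjusted p = 0.0283). Acan, the cartilage proteoglycan aggrecan, fell (adjusted p = 0.0439) and was at least 1.16-fold lower, with 0 of 3 KO arrays and 3 of 3 WT arrays above background, so its p too rests on KO values at background. The main cartilage collagen gene Col2a1 differed by 0.76 (adjusted p = 0.0813, not past the threshold). The summed level of the 14 genes was 3.84 to 4.33 in KO lungs and 3.32 to 4.27 in WT lungs. The sum joins genes of opposite sign, among them Col9a3 (1.98), Col9a1 (1.81) and Chad (-1.59), which did not pass, so similar sums do not mean unchanged genes. Matn1 and Snorc were above background on 0 of 6 arrays, and the part of cartilage in the S100b difference was not tested.

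**Figure D2:**
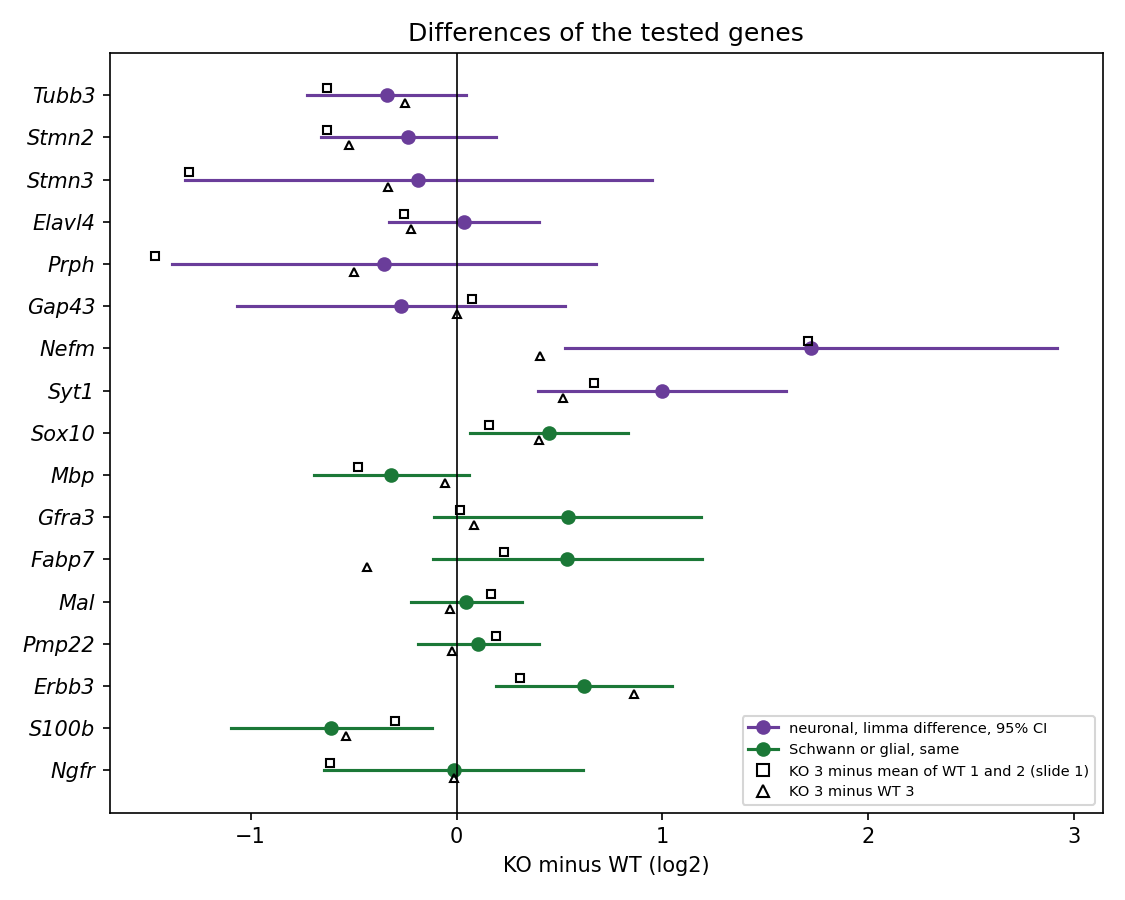
Difference between KO and WT lungs on the log2 scale for the 17 tested genes, with its 95% confidence interval (3 arrays per group), neuronal genes in purple and Schwann or glial genes in green. Squares are KO 3 minus the mean of WT 1 and WT 2 on the same slide and triangles are KO 3 minus WT 3. The intervals of Nefm, Syt1, Sox10, Erbb3 and S100b leave out 0 before adjustment, and none of the genes passed after it.

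The start regions of 4 of these genes are shown, which differ in their number of CG pairs. Pmp22 transcripts are known to start at alternative promoters, some used mainly by Schwann cells and others outside the nervous system, and its single probe on this array does not tell which start gave the signal. RefSeq sequences around the start, from 250 bases before to 50 bases after it on GRCm38.p6, were available for 16 of the 29 genes, with 4 starts for Pmp22. They are printed 5′ to 3′ on the gene's strand, with CG pairs, the sites of DNA methylation, in capitals (the pair reads the same on both strands). The most upstream Pmp22 start lies at chr11:63128732-63129031 and the most downstream one at chr11:63132553-63132852, both on the plus strand.
Pmp22, most upstream start: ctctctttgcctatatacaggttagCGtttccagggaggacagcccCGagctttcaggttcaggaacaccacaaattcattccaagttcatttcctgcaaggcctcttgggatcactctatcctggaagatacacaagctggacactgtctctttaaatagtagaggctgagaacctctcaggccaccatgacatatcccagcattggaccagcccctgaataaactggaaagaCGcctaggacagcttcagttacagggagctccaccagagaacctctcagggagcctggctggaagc
Pmp22, most downstream start: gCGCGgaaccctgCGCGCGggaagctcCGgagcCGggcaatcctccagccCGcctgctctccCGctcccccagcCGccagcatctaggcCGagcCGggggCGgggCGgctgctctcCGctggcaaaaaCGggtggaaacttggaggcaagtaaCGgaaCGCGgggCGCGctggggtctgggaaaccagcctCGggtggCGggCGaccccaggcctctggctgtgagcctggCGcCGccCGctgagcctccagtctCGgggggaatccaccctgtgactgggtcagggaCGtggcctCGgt
The upstream Pmp22 sequence has 3 CG pairs and the downstream one 30, where the median over 32851 start regions of all genes is 7 and 94.6% of these regions hold at least 1 pair. The glial genes whose differences had opposite signs, S100b (chr10:76253586-76253885, plus strand) and Fabp7 (chr10:57784673-57784972, plus strand), have 3 and 6 pairs, and the neuronal tubulin gene Tubb3 (chr8:123411303-123411602, plus strand) has 26.
S100b: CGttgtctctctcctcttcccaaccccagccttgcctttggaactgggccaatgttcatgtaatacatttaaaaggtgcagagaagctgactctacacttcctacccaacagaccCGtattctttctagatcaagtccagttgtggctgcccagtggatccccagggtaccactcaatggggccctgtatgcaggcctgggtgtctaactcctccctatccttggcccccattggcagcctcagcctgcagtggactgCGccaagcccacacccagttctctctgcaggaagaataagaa
Fabp7: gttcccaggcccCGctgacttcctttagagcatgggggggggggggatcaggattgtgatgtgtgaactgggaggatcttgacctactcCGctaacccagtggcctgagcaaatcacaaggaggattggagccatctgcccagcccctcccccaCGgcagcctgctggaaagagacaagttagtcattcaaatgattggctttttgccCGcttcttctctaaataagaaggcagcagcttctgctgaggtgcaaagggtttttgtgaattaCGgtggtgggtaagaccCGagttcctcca
Tubb3: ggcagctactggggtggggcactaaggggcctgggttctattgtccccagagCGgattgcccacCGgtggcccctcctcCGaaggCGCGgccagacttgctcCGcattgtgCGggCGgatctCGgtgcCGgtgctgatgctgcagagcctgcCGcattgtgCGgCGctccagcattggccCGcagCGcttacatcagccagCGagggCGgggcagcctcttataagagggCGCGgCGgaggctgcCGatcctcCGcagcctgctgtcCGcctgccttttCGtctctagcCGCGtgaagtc
These counts describe the sequence, and no methylation was measured.

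Set side by side, the 8 tested neuronal genes had 3 positive and 5 negative differences with a median of -0.21, and the 9 tested Schwann and glial genes 6 positive and 3 negative with a median of 0.11. Of all features tested 51% had positive differences, and their median was 0.01. The neuronal differences ran from -0.35 (Prph) to 1.72 (Nefm) and the glial ones from -0.61 (S100b) to 0.62 (Erbb3). Nefm and Syt1 entered the test only through the KO arrays and Prph only through the WT arrays. Among genes above background on all 6 arrays, the median was -0.23 for 5 neuronal genes and 0.11 for 9 glial genes. The medians of both classes are descriptions with no test. The neuronal median turned to 0.11 without KO 3 and to 0.18 with no filter on dim probes. With the term for Y-linked signal, which leaves WT 3 as the only WT array compared, it was 0.18. With another background correction (normexp) it was 0.93. The glial median was between 0.04 and 0.23 with any 1 array left out. It was 0.87 with normexp, 0.27 with no filter and -0.044 with median scaling. The median of all features was 0.15, 0.14 and -0.14 under these settings.

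The medians per array were set beside these. For each gene the level was set relative to its mean over the 6 arrays, and the median over the tested genes was taken per array. For the neuronal genes this was 0.25, 0.23 and -0.30 on KO 1, 2 and 3 and 0.12, 0.02 and -0.06 on WT 1, 2 and 3, so that the KO arrays spread beyond the WT arrays on both sides. KO 3 was the lowest array for 5 of the 8 neuronal genes. For the Schwann and glial genes it was 0.11, 0.27 and -0.07 on KO 1, 2 and 3 and -0.06, -0.16 and -0.12 on WT 1, 2 and 3. KO 2 was the highest array for 4 of these 9 genes, and KO 3 lay between WT 1 and WT 3.

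**Figure D3:**
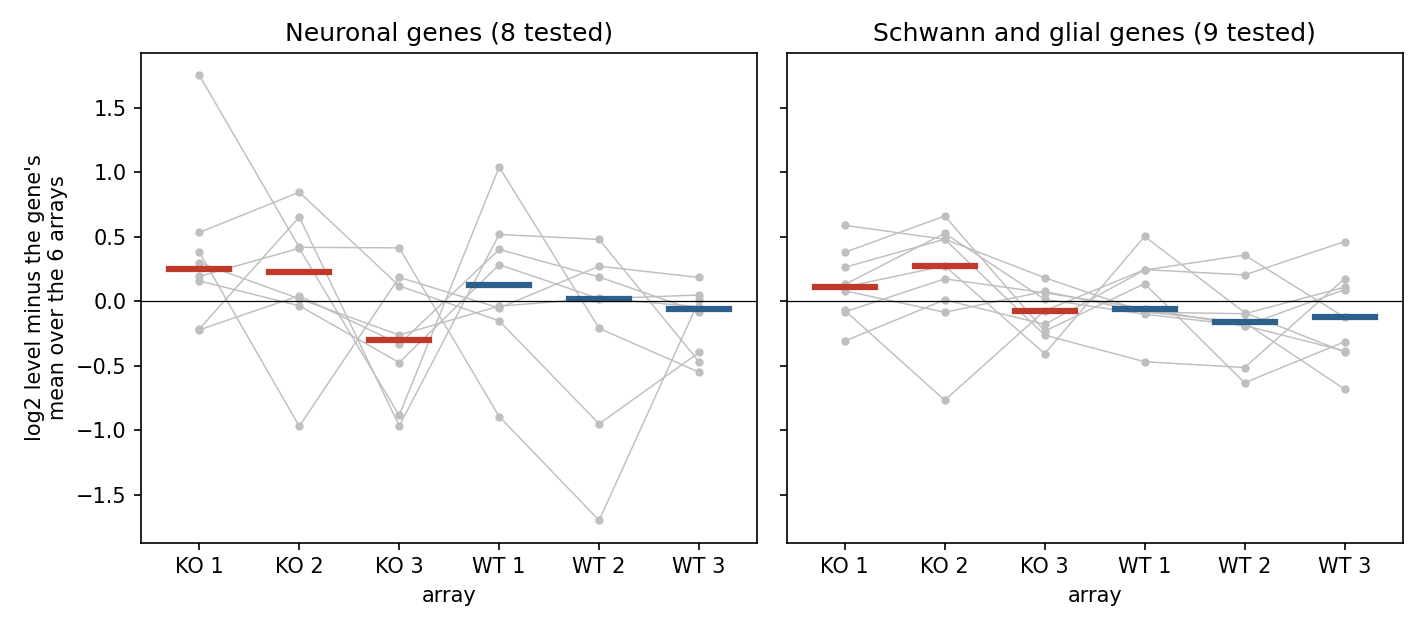
Log2 level of each tested gene minus its mean over the 6 arrays, for neuronal genes (left) and Schwann and glial genes (right). Each grey line is a gene and each bar the median over genes on that array, red for KO and blue for WT. The neuronal medians of the KO arrays are 0.25, 0.23 and -0.30, on both sides of those of the WT arrays.

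Further lists hold other genes of the same cells. Some genes stand in several of the lists here and below, such as L1cam, Ednrb, Chga and Syp, so the lists are not independent. Of 27 other autonomic neuron genes 13 were tested, of which 0 rose and 1 fell, with a median difference of -0.02. The gene that fell was Insm1, a zinc finger factor of sympathetic and neuroendocrine precursors, with levels of -7.16, -7.27 and -6.74 in KO lungs, none above background, and -6.06, -6.11 and -5.82 in WT lungs, all above it. It was at least 1.26-fold lower in KO lungs (adjusted p = 0.0417), and it entered the test only through the WT arrays, so its p rests on KO values at background. Hand2, a factor of sympathetic neurons, the genes of acetylcholine synthesis and transport Chat, Slc18a3 and Slc5a7, and Vip and Nos1, transmitters of airway ganglia, were above background on 0 of 6 arrays. Of 45 other pan-neuronal and synaptic genes 39 were tested, of which 0 rose and 0 fell, 22 had positive and 17 negative differences, and the median was 0.05. Those of smallest p were the axonal adhesion gene L1cam (0.75, adjusted p = 0.0622), which is X-linked and differed by 0.79 between KO 3 and WT 3, and the RNA-binding protein gene Celf4 (0.66, adjusted p = 0.0628). Of 13 sensory neuron genes 7 were tested and 0 passed, with 3 positive and 4 negative differences. An unadjusted p under 0.05 was seen for 4 of the 7 and for 25.7% of all features. The median, -0.58, was the value of the peptide gene Calca. Of the sensory genes, Calcb, a calcitonin gene-related peptide, had the smallest p (-2.39, limma adjusted p = 0.0877). It was above background on 1 of 3 KO and 3 of 3 WT arrays, so that the size is not settled. Next came Piezo2, a mechanosensitive channel (0.39, adjusted p = 0.104). Calca and Calcb are also among the markers of pulmonary neuroendocrine cells used below.

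Of 35 other Schwann and satellite cell genes 28 were tested, of which 0 rose and 0 fell, 10 had positive and 18 negative differences, and the median was -0.18, the opposite sign to that of the 9 genes above. The members of smallest p were Tfap2a, a neural crest factor (-0.77, adjusted p = 0.0519, with 1 of 3 KO and 3 of 3 WT arrays above background), and Cryab, a small heat shock protein that heart muscle also makes in quantity (-0.95, adjusted p = 0.0583). KO and WT arrays did not overlap for 11 of the 28, where 31.3% of all features did not overlap. The summed level of the list was 41.6 to 46.9 in KO lungs and 49.9 to 53 in WT lungs. Without Cryab it was 32.8 to 36.5 in KO lungs and 29.8 to 36.3 in WT lungs, so the separation of the sums rested on that gene. Of 26 neurotrophic ligands, receptors and neuregulins 21 were tested and 0 passed, with a median of -0.05, and the members of smallest p were the endothelin receptor gene Ednrb (0.65, adjusted p = 0.118) and its ligand gene Edn3 (0.55, adjusted p = 0.129).

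Markers of other cells that a lung dissection can hold were set beside these values. Of 16 cardiac muscle markers, all tested, 0 rose and 11 fell, with a median of -1.59, and their summed level was 35.6 to 49.5 in KO lungs and 62.9 to 73.6 in WT lungs. Those of smallest p were Myl3, Nkx2-5, Csrp3, Myl4 and Myl7, which fell by 2.44, 1.73, 2.14, 1.72 and 1.46 on the log2 scale. The heart carries nerves and ganglia of its own, and the part of attached heart tissue in the nerve genes was not tested. Of 14 markers of pulmonary neuroendocrine cells, 13 were tested, of which 0 rose and 1 fell (Insm1 again). These innervated epithelial cells share many neuronal genes. Differences were positive for 3 markers and negative for 10, with a median of -0.16. An unadjusted p under 0.05 (limma) was seen for 4 of the 13 and for 25.7% of all features. Their summed levels were 10.7 to 11.2 in KO lungs and 10.8 to 11.45 in WT lungs. Such a sum follows its brightest genes, here Cplx2 and Meis2 (mean WT levels of 2.29 and 2.15), and says little about the dimmer ones. Of 10 chromaffin cell markers 7 were tested and 0 passed, the smallest p being those of the vesicular transporter gene Slc18a1 (-0.77, adjusted p = 0.119) and the electron carrier gene Cyb561 (-0.14, adjusted p = 0.471). Of 10 markers of oesophagus and keratinocytes 5 were tested and 0 passed. The smallest p were those of the keratin gene Krt14 (-1.43, limma adjusted p = 0.052) and Trp63, a factor of basal epithelial cells (-0.44, adjusted p = 0.0978). Each of them was above background on 2 of 3 KO and 3 of 3 WT arrays. This list had 3 negative differences and 2 positive ones, those of the keratin genes Krt15 (0.34) and Krt13 (0.29). The summed levels of the 10 markers overlapped between KO and WT lungs. Of 10 markers of central glia 5 were tested, of which 1 fell, the connexin gene Gjb6 (-0.82, adjusted p = 0.0431), which epithelia also express. Differences were positive for 2 of the 5 and negative for 3, and Slc1a2 was the highest (0.47, limma adjusted p = 0.0869, not past the threshold). The oligodendrocyte markers Olig1, Mog, Mobp and Opalin were above background on 0 of 6 arrays, while Olig2 was above it on 1 of 3 KO and 2 of 3 WT arrays.

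**Figure D4:**
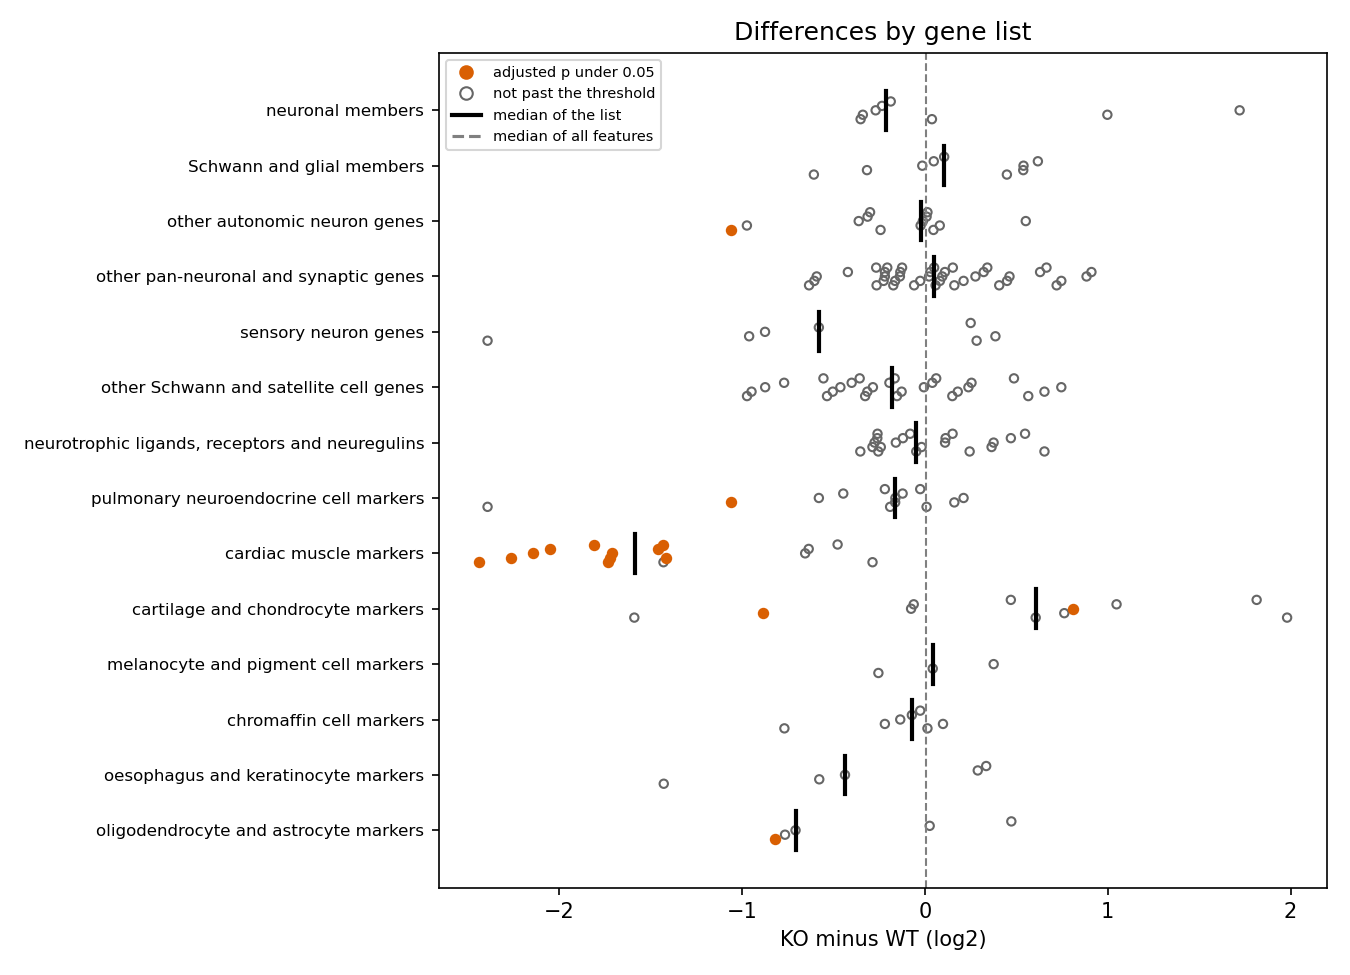
Difference between KO and WT lungs on the log2 scale for every tested gene of 14 lists, the neuronal and the Schwann and glial genes on top. Filled symbols passed an adjusted p under 0.05, thick bars are list medians and the dashed line is the median of all features. The 11 filled symbols of the cardiac list lie between -2.44 and -1.42, while the 2 nerve lists on top have none.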

How the data were processed

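Total RNA of 6 whole lungs, 3 knockout and 3 wild type, was labelled with Cy3 and hybridised to 1 Agilent array each, per the labels. The authors deposited scanner files with an intensity per spot, background-subtracted and detrended within the array by Feature Extraction 10.7.3.1, per the file headers. They also deposited a table of log2 values, which set against the scanner values proved centred per probe on the wild type median, with the direction of the intensities and medians of 0.011, -0.0070 and -0.00088 on the knockout arrays and 0 on each wild type array. Its scaling between arrays is not given in the sources used here.

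Control spots and 77 to 110 spots per array with outlier flags were left out, and 0 spots were saturated. Intensities were divided by the array's 75th percentile, taken to log2, and averaged over the spots of a probe. Accessions were named through RefSeq genes of GRCm38.p6 (26690 of 41174 probes, 64.8%). Probes were tested where every KO array, every WT array or both lay well above background, with the probe of highest mean over all arrays for each gene, which gave 19857 features. limma 3.58.1 in R 4.3.3 compared knockout with wild type, without covariates, with Benjamini-Hochberg adjustment. The code was tested on simulated data. The lungs came from 3 embryos per group per the labels, which do not name litters, and the number of arrays limits the precision. Other scalings, background correction, filters, probe rules and blocks, a term for the arrays with Y-linked signal, the authors' values and the removal of each array were tried as alternatives.

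The genes and lists were chosen with earlier results of these data known. The text names all 29 genes, and from every other list those that passed (at most the 5 of smallest p) or, where none did, the 2 of smallest p, together with defining markers of each list and markers at background. Some results are not reported here.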

Additional observations from a re-analysis of the deposited data

How the results depend on the processing

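The 17 alternatives were other scalings, filters, probe rules and blocks and the removal of each array. One of them, normexp on the spot and background medians, was set after seeing the files, which hold no spot means. Of 286 values of single genes under them, 257 kept their sign and their side of the threshold, 27 turned in sign and 2 passed the threshold. The slide block compared KO 3 with WT 1 and WT 2 only, since slides 2 and 3 each held 1 genotype. Its differences for the tested genes are therefore those given above as within slide 1. The term for Y-linked signal set the KO arrays against WT 3 alone. Each of these 2 alternatives rests on 1 array of a group.

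The count of changed features, 266, was 0 with normexp (limma, 1574 at an unadjusted p under 0.05), 28 with no filter on dim probes, 23 with the slide as a block, 17 with the term for Y-linked signal, and 1701 with a random block for the file name number, whose estimated correlation was -0.20. Without KO 1, KO 2 and KO 3 it was 58, 79 and 443, and without WT 1, WT 2 and WT 3 it was 33, 54 and 1971. It was 196 with quantile normalization (58 higher and 138 lower, against 143 and 123), 196 in the authors' values (59 and 137) and 321 with median scaling (81 and 240). The labels' replicate numbers did not pair the arrays (correlations of same-numbered deviations of -0.02, 0.04 and 0.03), and with the replicate block the count was 54. The called neuronal genes numbered 1 with the file name number as a random block (Syt1, 1.06), and 0 to 1 with an array left out (1 without WT 3, Nefm, where both remaining WT arrays are below background). The called Schwann and glial genes numbered 0 throughout.

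The median of all features, 0.01, was -0.14 with median scaling, 0.15 with normexp and 0.14 with no filter. The neuronal median, -0.21, was 0.93 with normexp, 0.18 with no filter, -0.44 with the slide blocked, 0.18 with the term for Y-linked signal, and from -0.32 to 0.11 with an array left out. The glial median, 0.11, was -0.044 with median scaling, 0.87 with normexp and 0.27 with no filter, and from 0.04 to 0.23 with an array left out. Relative to all features under the same alternative, the glial median with median scaling was positive. The causes were not tested.

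With normexp the sign turned for Tubb3 (0.39), Stmn2 (0.46), Stmn3 (0.97), Prph (0.94), Gap43 (0.63), Ngfr (0.87), Mal (-0.026) and Pmp22 (-0.11). It turned with the term for Y-linked signal for Stmn3 (0.46), Prph (0.29), Ngfr (0.39), Mal (-0.084) and Pmp22 (-0.037). With median scaling, which moves all differences alike, the values of Elavl4 (-0.11), Mal (-0.10) and Pmp22 (-0.044) were negative but above the median of all features. With the slide blocked it turned for Elavl4 (-0.25) and Gap43 (0.075). For Elavl4 it was also negative in the authors' deposited table (-0.12) and after quantile normalization (-0.12). It turned without KO 3 for Stmn3 (0.21), Prph (0.043) and Ngfr (0.19), without WT 1 for Stmn3 (0.29) and Ngfr (0.23), without KO 2 for Gap43 (0.15) and without KO 1 for Elavl4 (-0.10). With an array left out the values ran from -0.51 to 0.29 for Stmn3, from -0.77 to 0.043 for Prph, from -0.53 to 0.15 for Gap43, from -0.10 to 0.18 for Elavl4 and from -0.21 to 0.23 for Ngfr.

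The half-width of the 95% confidence intervals of the 17 tested genes was between 0.27 and 1.20 with a median of 0.49. The 5 genes whose unadjusted interval left out 0 did not pass after adjustment, so with 3 arrays per group their differences were not resolved. Size alone did not decide this, as Syt1 (1.00, SE 0.26) did not pass and Col9a2 (0.81, SE 0.11) did. Of the 29 genes 12 could not be tested for lack of signal over background.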
